A study of Mus musculus with 3 samples.

Results

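Transcript levels of 8 genes, the Ets factors Ets1, Ets2, Fli1 and Erg, the ternary complex factors Elk1, Elk3 and Elk4, and their partner Srf, were read from RNA-seq of wounded mouse fibroblasts treated with soluble micrograft (MG) together with PD0325901. The genes were taken by name from the 43472 genes of the deposited table, of which 20322 had reads, and all 8 were found. Primary fibroblasts came from tail tips of C57BL/6 mice, were scratched to mimic a wound, and received for 5 h the cell-free extract of minced mouse skin and 1 μM of PD0325901, which blocks MEK, the kinase that activates ERK. This MG + PD0325901 condition has 3 libraries, titled as replicates, and the titles do not say whether they came from separate mice or cultures. Samples without the inhibitor were not analysed here, so no effect of MG or of MEK inhibition was computed, and p-values below compare libraries of 1 condition.

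ERK signalling reaches these factors as proteins. Elk1, Elk3 and Elk4 bind promoters next to a dimer of Srf (serum response factor) on a sequence called the CArG box, and phosphorylation by ERK switches them to activators of immediate early genes such as Fos and Egr1. Srf also works with the actin-regulated coactivators Mkl1 and Mkl2 (also called Mrtfa and Mrtfb) on genes of the cytoskeleton. Ets1 and Ets2 are themselves phosphorylated after ERK activation and act with AP-1 on protease genes, while Fli1 and Erg are best known from blood and endothelial cells. RNA levels report the supply of each factor and not its phosphorylation.

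The promoter of Srf is shown because it holds the kind of site that Srf itself binds, the CArG box. RefSeq promoter windows (GRCm38.p6, 250 bases before to 50 after the start site) were found for 6 of the 8 genes, all but Ets1 and Fli1. Only bases upstream of both the RefSeq and the GENCODE start are printed, 5′ to 3′ on the strand of the gene, with motifs in capitals. Srf lies on the minus strand and its stretch is chr17:46556176-46556412, with CArG boxes whose first bases are 82 and 62 bases before the start site. Elk4 lies on the plus strand, and its stretch chr1:132007370-132007606 holds the high-affinity Ets core CCGGAAGT, 68 bases before the start site.
Srf: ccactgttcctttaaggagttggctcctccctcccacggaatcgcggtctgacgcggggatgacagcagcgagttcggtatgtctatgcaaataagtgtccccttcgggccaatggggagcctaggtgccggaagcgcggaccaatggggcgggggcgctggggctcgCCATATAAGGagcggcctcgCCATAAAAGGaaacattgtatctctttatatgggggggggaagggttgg
Elk4: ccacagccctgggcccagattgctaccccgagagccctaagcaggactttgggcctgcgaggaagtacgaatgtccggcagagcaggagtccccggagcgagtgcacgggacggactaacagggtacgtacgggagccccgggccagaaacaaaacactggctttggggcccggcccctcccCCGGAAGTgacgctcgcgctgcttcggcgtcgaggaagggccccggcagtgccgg
The CArG box searched has CC and GG around 6 bases that are each A or T, so that it reads alike on both strands. It was present in 488 of 27025 genes with a window (1.81%), and 2 or more boxes lay in a window of 5 genes, Srf among them. Of the 6 genes of the set with a window, Srf alone had the box. CCGGAAGT, searched on both strands, was present in 1164 genes (4.31%), and in Elk4 alone of the 6. Such matches describe letters in a window and not binding.

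Reads on genes totalled 22540518, 27037783 and 17244505 in replicates 1, 2 and 3, and 3 reads, the limit that a count of 0 allows, equalled 2.11 to 3.56 normalized counts (counting error only). Replicate 2 stood apart, being more than 2-fold from both others in 1325 of 13154 genes, against 560 for replicate 1 and 471 for replicate 3. All 8 fibroblast markers were detected, meaning that no library had fewer than 10 normalized counts. Their sum of 321217 to 476290 was carried by Col1a1, Col1a2 and Vim, while Thy1 was highest in replicate 2 (2031, 15760.0 and 1652 normalized counts) and Lum lowest there (5073, 289 and 1164). Of the Ets and Srf genes, 7 of 8 were detected, against 60.1% of all genes with reads, and Erg was the exception.

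Srf, the DNA-binding partner of the ternary complex factors, was the most even of the 8 genes. The gene lies on chromosome 17 (46548329 to 46556175, minus strand, GRCm38), and its libraries read 2385, 2421 and 2642 normalized counts in replicates 1, 2 and 3 (2483 ± 139, SD, n = 3). Its range was 1.11-fold, and 5.92% of all detected genes had a smaller SD of log2 values. Replicates 1 and 2 did not differ beyond counting error (1.01-fold, adjusted p = 0.629, exact binomial test). Replicate 3 was 1.11-fold above replicate 1 (adjusted p = 0.00105) and 1.09-fold above replicate 2 (adjusted p = 0.00286, exact binomial tests). These tests treat each read as independent, take the size factors as given and do not cover variation between cultures. In log2 these differences were 0.147 and 0.126. Scaling to equal totals instead would shift replicate 2 by 0.0468 and replicate 3 by -0.0547 log2, so both differences would shrink.

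Elk3, a ternary complex factor that represses in resting cells, was the most abundant of its family. The gene (chromosome 10, 93247414 to 93311135, minus strand) reached 2480.0, 1771 and 2081 normalized counts (2111 ± 356, SD, n = 3), with replicate 2 lowest and a 1.40-fold range. Elk1, the best studied of the family (chromosome X, 20933395 to 20950608, minus strand), reached 509.7, 661 and 659 normalized counts (609.9 ± 86.8, SD, n = 3). Replicates 2 and 3 were nearly equal for Elk1, and replicate 1 was lower by 1.30-fold and 1.29-fold.

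Elk4, also known as Sap1, varied most among the detected genes of the set. On chromosome 1 (132007607 to 132032612, plus strand), it reached 1068, 557 and 609 normalized counts in the 3 libraries (745 ± 281, SD, n = 3), and 77.2% of detected genes had a smaller SD of log2 values. Replicate 1 was 1.92-fold above replicate 2 (adjusted p = 1.25e-46) and 1.75-fold above replicate 3 (adjusted p = 3.78e-27, exact binomial tests), while replicates 2 and 3 differed by 1.09-fold (adjusted p = 0.161, exact binomial test). Replicate 1 thus stood high for Elk4, whereas it was the lowest library for Elk1. Without replicate 1 the range of Elk4 was 1.09-fold.

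Levels can be compared between genes only per length, so normalized counts were divided by kb of annotated exon. Elk3 made up 67.6%, 65.0% and 67.8% of the summed level per kb of the 3 ternary complex factors in replicates 1, 2 and 3. Elk1 held 11.7%, 20.5% and 18.1%, and Elk4 held 20.7%, 14.5% and 14.1%. Elk3 led in every library by at least 3.17 times over Elk1 and 3.27 times over Elk4. With the longest transcript as the length, it led by at least 2.26 and 2.44 times. Elk1 and Elk4 changed places, with Elk4 above Elk1 in replicate 1 only. Srf was 1.02, 1.40 and 1.35 times the sum of the 3 factors per kb, and with the longest transcript as the length it was 0.937, 1.26 and 1.24 times that sum.

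Ets1, which the study counted among genes of angiogenesis, reached 2498, 2206 and 2851 normalized counts in replicates 1, 2 and 3 (2518 ± 323, SD, n = 3). Replicate 2 was lowest and replicate 3 highest, 1.29-fold apart (adjusted p = 4.16e-20, exact binomial test). Its close relative Ets2 reached 639, 852 and 895 normalized counts (795 ± 137, SD, n = 3), with replicate 1 lowest. Replicates 2 and 3 did not differ beyond counting error for Ets2 (1.05-fold, adjusted p = 0.368, exact binomial test). Per kb, Ets1 was above Ets2 in every library, by 2.67, 1.77 and 2.17 times.

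Fli1 and Erg were far lower. Fli1 had 29.5, 49.3 and 42.7 normalized counts, from 34, 70 and 36 reads (40.5 ± 10.1, SD, n = 3). Exact Poisson intervals (95%) were 20.4 to 41.3, 38.4 to 62.3 and 29.9 to 59.1, so all 3 overlapped, and of the pairs only replicates 1 and 2 passed the test (1.65-fold, adjusted p = 0.0210, exact binomial test). Erg had 5.21, 0.705 and 11.9 normalized counts, from 6, 1 and 10 reads. Its intervals were 1.91 to 11.3, 0.0178 to 3.93 and 5.68 to 21.8, and replicate 3 was above replicate 2 (adjusted p = 0.000811, exact binomial test), with 1 read as the lower count.

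Both low genes are neighbours of a high relative. Fli1 (chromosome 9, 32422204 to 32542861, minus strand, GRCm38) and Ets1 (chromosome 9, 32636221 to 32757820, plus strand) point away from each other across 93.4 kb with 0 protein-coding genes between them. Erg (chromosome 16, 95359169 to 95586593, minus strand) and Ets2 (chromosome 16, 95702075 to 95721051, plus strand) lie in the same way across 115 kb, also with 0 protein-coding genes between. Per kb, Ets1 was 34.8, 18.4 and 27.5 times Fli1 in replicates 1, 2 and 3, or 55.3, 29.2 and 43.6 times by the longest transcript. Ets2 was 73.6 times Erg in replicate 1 (exact binomial interval, 95%, 33.6 to 201) and 45.3 times in replicate 3 (24.5 to 94.8). For replicate 2 the ratio rested on 1 read of Erg and was 725 (130 to 28659). In both pairs the plus-strand gene was the higher in all 3 libraries.

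Markers of cells in which Fli1 and Erg are prominent were read beside them. Of 10 endothelial markers, 2 were detected (Esam and Egfl7), Tie1, Emcn and Sox17 were at 0, and Cdh5 reached at most 1.19 normalized counts. The sum of the endothelial list was 147, 298 and 109 normalized counts in replicates 1, 2 and 3, most of it in replicate 2 from Tek with 185. None of the 7 leukocyte markers reached the minimum in every library, Cd3e was at 0 and Ptprc at most 1.74. Their sum was 7.82, 10.6 and 73.5 and so was highest in replicate 3, the library with most Erg. In that library Laptm5 had 36.7, Tyrobp 15.4, Cd52 9.48 and Itgam 8.30 normalized counts, each its highest value. Ptprc and Cd79a were highest in replicate 1. Of the 4 megakaryocyte markers, 1 (Itga2b) was detected, Gp9 and Gp1ba were at 0, and the sum was 166, 187 and 114. Itga2b carried most of that sum with 150, 180 and 85.3 normalized counts. Pf4 went the other way with 15.6, 7.05 and 28.4, highest in replicate 3 and lowest in replicate 2, as was Erg. The 6 cartilage markers, 3 of them detected and Matn1 at 0, summed to 19934, 1902 and 6148, and the 5 keratinocyte markers, 1 detected (Krt10) and Krt15 and Krt1 at 0, to 81.6, 39.5 and 34.4. The cartilage and keratinocyte sums were highest in replicate 1, as were Elk3 and Elk4, but few genes carried them. In replicate 1, Col2a1 (11538 normalized counts) and Prg4 (8214) made up most of the cartilage sum. Sox9 was also highest there, but Acan was highest in replicate 3 and Matn3 in replicate 2. The keratinocyte sum was almost all Krt10 (80.8 normalized counts in replicate 1), and Krt5 and Krt14 did not exceed 2.37 in any library. The part of other cells in the levels of Fli1, Erg, Elk3 and Elk4 was not tested. In bulk RNA fewer cells of a type and less RNA per cell cannot be told apart.

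**Figure D1:**
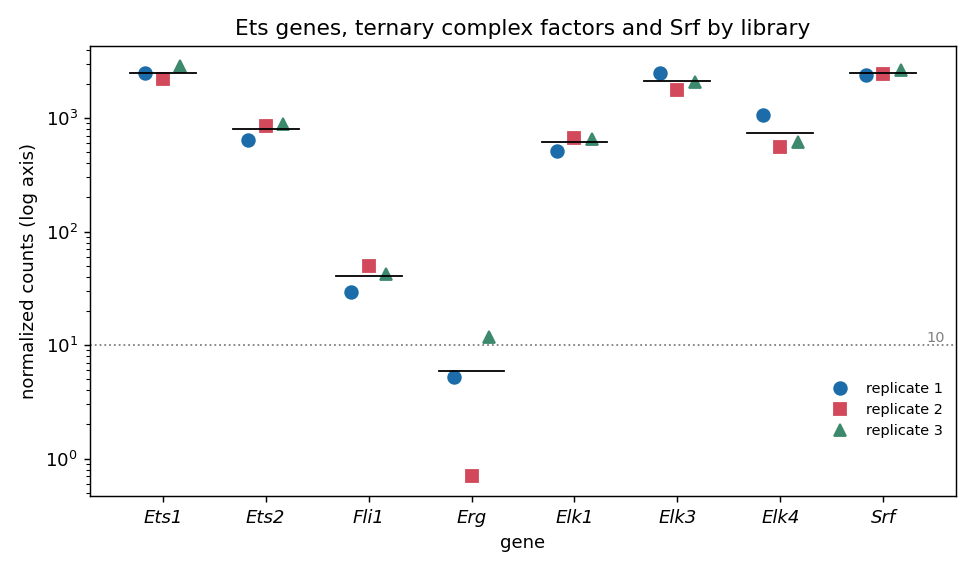
Normalized counts (log axis) of the 8 genes in replicates 1, 2 and 3 of MG + PD0325901. Lines are means of 3 libraries and the dotted line is the detection minimum of 10. Ets1, Elk3 and Srf have the 3 highest means, and Erg crosses the minimum in replicate 3 only.

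Set beside all Ets genes, Elk3 and Ets1 had the highest means per kb. Of its 26 genes in the table, 15 were detected. Srf had 858 ± 48.1 normalized counts per kb (SD, n = 3), at percentile 90.1 of the 11624 detected genes with a length. It was followed by Elk3 with 464 ± 78.1 (percentile 82.5) and Ets1 with 297 ± 38.1 (percentile 74.6). Srf and Elk3 did not overlap between libraries. Elk3 and Ets1 did not overlap with this length, but with the longest transcript as the length they did, with Elk3 at 589, 420.4 and 494 and Ets1 at 492, 434 and 561 per kb in replicates 1, 2 and 3. Their order is thus not settled by these data. Ets1 overlapped Erf, an Ets repressor that ERK drives out of the nucleus, which had 217 ± 63.6 per kb (SD, n = 3) and stood above Ets1 in replicate 2.

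Ets2 with 138 ± 23.7, Elk4 with 116 ± 43.9 and Elk1 with 113 ± 16.1 normalized counts per kb (SD, n = 3) overlapped each other and the broadly expressed Ets factors Gabpa and Elf1. Fli1 with 11.6 ± 2.89 per kb was the lowest detected Ets gene (percentile 8.77), below Etv3 with 39.7 ± 2.23 in every library. Erg had 1.71 ± 1.62 per kb (SD, n = 3) and overlapped the undetected Elf3 and Spi1. Elk3 and Ets1 together held 39.5%, 30.5% and 39.5% of the summed level per kb of the 26 Ets genes in replicates 1, 2 and 3. The 7 Ets genes of the set held 57.5%, 47.9% and 58.8%, so their share was smallest in replicate 2.

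**Figure D2:**
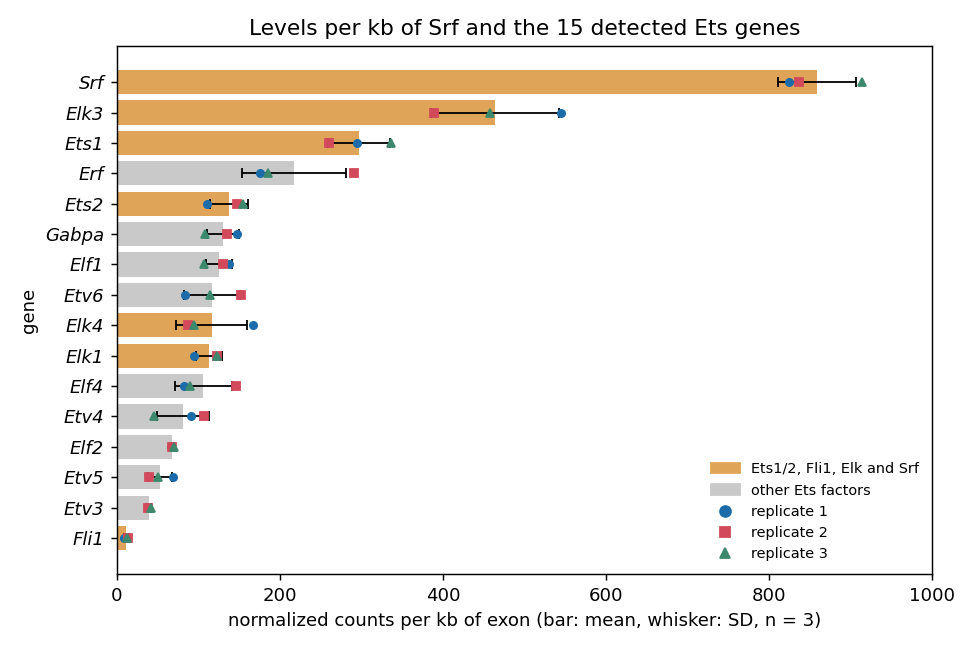
Normalized counts per kb of exon for Srf and the 15 detected Ets genes, ordered by mean (bars, with SD, n = 3), with points for each library. Srf, Elk3 and Ets1 are the 3 highest by mean, and Fli1, at 11.6, is the lowest.

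The 7 detected genes were described by how far the libraries lay apart. For none of them did the ratio of highest to lowest library exceed 2, which it did for 21.6% of 12204 detected genes. On the log2(normalized count + 1) scale the SD had a median of 0.24 over the 7 genes and 0.30 over all detected genes, and 5 of the 7 lay below the latter. Leaving out replicate 1, 2 or 3 gave a median SD of the set of 0.092, 0.26 or 0.29. These are SDs over 2 libraries, and the same was not computed for all detected genes. The highest library was replicate 1 for Elk3 and Elk4, replicate 2 for Elk1 and Fli1, and replicate 3 for Ets1, Ets2 and Srf. The genes thus did not share 1 order of libraries, though replicate 3 was the lowest for none of them.

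Differences beyond counting error were common in the set, as in the whole table. Between replicates 1 and 2, 6 of 7 genes tested passed the adjusted p threshold of 0.05, against 69.0% of all genes. Elk3, Elk4 and Ets1 were higher in replicate 1, and Elk1, Ets2 and Fli1 lower. Between replicates 1 and 3 it was 6 of 8 (51.9% of all genes), with Elk3 and Elk4 higher in replicate 1 and Ets1, Ets2, Elk1 and Srf lower. Between replicates 2 and 3 it was 4 of 8 (62.6% of all genes), Ets1, Elk3, Srf and Erg, each higher in replicate 3. The tests do not cover the choice of scaling, which matters most for small differences such as that of Srf.

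With a more than 2-fold difference required as well, 0 of 7 and 0 of 8 genes were called between replicate 1 and replicates 2 and 3. Of all genes, 10.8% were called higher and 9.51% lower in replicate 1 than in replicate 2, and 5.64% and 3.63% than in replicate 3. Erg was called lower in replicate 2 than in replicate 3, as were 7.22% of all genes, and 0 of the 8 were called higher there, against 9.22%. At an unadjusted p under 0.05 without the fold limit, 6, 6 and 4 genes passed in the 3 pairs (exact binomial tests), the same counts as with adjusted p. The unadjusted share of all genes was not computed, and the adjusted share was 69.0%, 51.9% and 62.6%.

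**Figure D3:**
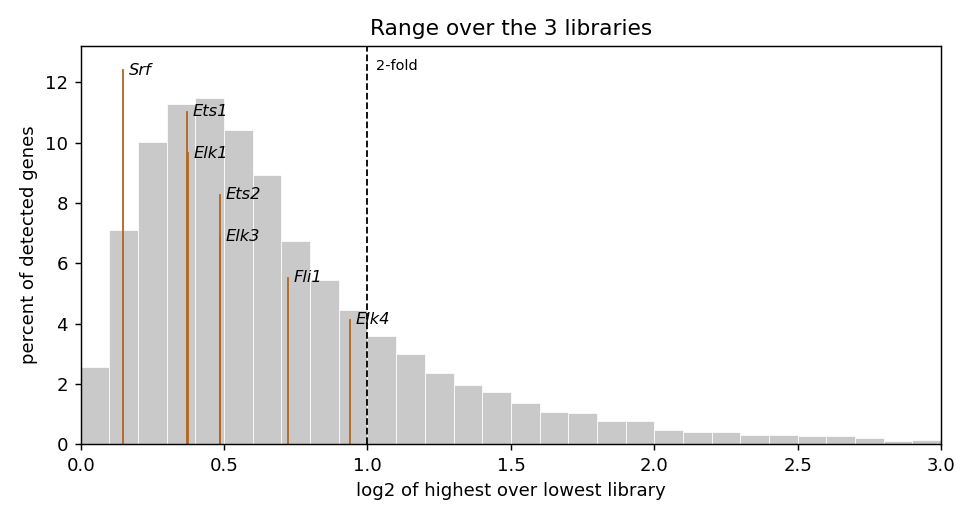
Histogram of the log2 ratio of highest over lowest library for the 12204 detected genes (0.991% of them lie beyond the axis at 3), with lines for the 7 detected Ets and Srf genes. All 7 lie left of the dashed 2-fold limit, with Srf nearest to 0 and Elk4 nearest to the limit.

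Partners and targets of these factors were followed in 5 lists, in which a gene was called between libraries where it passed the adjusted p and differed more than 2-fold. Of 5 Srf cofactors, 4 were detected and 0 had a more than 2-fold range. Normalized counts of Mkl1 were 2141, 3448 and 2113, a 1.63-fold range with replicate 2 highest, and per kb it was 0.425, 0.674 and 0.378 times Srf and 9.57 to 12.9 times Mkl2. Scai, a repressor of these coactivators, was also highest in replicate 2 with 122, 195 and 123. Fhl2, a cofactor and target of Srf, had 3099, 3063 and 2768 normalized counts and the smallest range, 1.12-fold. Myocd, the coactivator of muscle, was not detected and had 7, 29 and 5 reads. It was the 1 gene of the 5 called between libraries, higher in replicate 2 than in replicates 1 and 3, beside 9.51% and 9.22% of all genes.

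Early targets of the ternary complex had a median ratio of highest to lowest library of 1.99 over their detected genes, beside 1.40 for the Ets and Srf genes and 1.49 for all detected genes. Of 10 genes, 7 were detected, and 3 of these (Egr1, Junb and Nr4a1) had a more than 2-fold range by log2(normalized count + 1), beside 21.6% of all detected genes. Without replicate 2 the count was 0, beside 6.39% of all detected genes, and Fosb, an AP-1 subunit at 23.4, 31.7 and 15.4 normalized counts, lay just under the limit. Fos, the AP-1 subunit whose promoter defined the complex, had 34.7, 61.3 and 34.4 normalized counts, a 1.78-fold range with replicate 2 highest. Egr1, a zinc finger factor that is also a classical read-out of the complex, had 57.3, 16.2 and 30.8 normalized counts, and Junb, an AP-1 subunit, had 1731, 530 and 1322. Nr4a1, an orphan nuclear receptor, went the other way with 666, 1608 and 684. Mcl1, a survival factor, was the most abundant and least variable of the detected genes, with 4279, 2673 and 3767.
Between replicates 1 and 2, 2 of 8 tested early targets were called higher and 1 lower in replicate 1, beside 10.8% and 9.51% of all genes. For replicates 1 and 3 the counts were 1 (the undetected Egr2) and 0, beside 5.64% and 3.63%. For replicates 2 and 3 they were 2 higher, Egr2 among them, and 1 lower in replicate 2, beside 9.22% and 7.22%. Egr2, with 11, 14 and 0 reads, was the 1 early target, of 7 with a promoter window, in which a CArG box was found, beside 1.81% of all genes. Boxes further than 250 bases before the start site, or with other letters, would be missed by this search. Beside the 3.54-fold range of Egr1, the range was 1.11-fold for Srf, 1.30-fold for Elk1, 1.40-fold for Elk3 and 1.92-fold for Elk4. Elk3 and Elk4, like Egr1, Junb and Mcl1, were highest in replicate 1 and lowest in replicate 2. Elk1 and Srf were lowest in replicate 1. Fos, Fosb and Nr4a1 were highest in replicate 2, and Ier2 in replicate 3.

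Cytoskeletal targets of Srf and its actin-regulated coactivators were all 15 detected. Acta2, smooth muscle actin, had 152758, 166683 and 205899 normalized counts, averaging 175113 ± 27555 (SD, n = 3). In this list 1 gene, Ctgf, had a more than 2-fold range, with 122412, 58880 and 111854, beside 21.6% of all detected genes. It was the 1 gene called between replicates 1 and 2, higher in replicate 1, beside 10.8% of all genes. The count with such a range was 0 without replicate 1 and 0 without replicate 2, beside 12.8% and 6.39%. In the other pairs 0 of 15 were called. Myh9, non-muscle myosin, was highest in replicate 2 with 19671, 37516 and 32932, and Cnn2, a calponin, was the most even with 19151, 15699 and 19278. For 10 of the 15 genes the lowest value was in replicate 2. Of 11 with a promoter window, 4 held a CArG box, against 1.81% of all genes, and their sites are shown with Egr2 for comparison with the Srf promoter, each box in capitals with 10 bases on either side on the strand of the gene.
Actg1, chr11:120348566-120348595: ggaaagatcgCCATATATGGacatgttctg
Cnn2, chr10:79988534-79988563: cgcttccacgCCTTATAAGGacatttgctc
Myl9, chr2:156775293-156775322: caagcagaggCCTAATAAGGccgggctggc
Vcl, chr14:20929161-20929190: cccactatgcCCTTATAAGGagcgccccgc
Egr2, chr10:67537484-67537513: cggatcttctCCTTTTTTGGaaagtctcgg
Egr2 holds another box before a later start site, not shown. The list was written from known Srf targets, so its count of boxes is a description.

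The list of genes known as targets of Ets factors and AP-1 holds 5 proteases (Plau, Mmp1a, Mmp3, Mmp9 and Mmp13), the metalloproteinase inhibitor Timp1 and the matrix protein Spp1 (osteopontin). CCGGAAGT was found in 0 of the 5 with a promoter window, beside 4.31% of all genes, so a count of 0 is uninformative for so few genes. Other forms of the Ets site and bases outside the window were not searched. The list had a median ratio of 2.91, the largest of the 5 lists. Of 7 genes, 6 were detected and 5 had a more than 2-fold range, all with replicate 2 lowest, beside 21.6% of all detected genes. The 5 were Mmp3, Mmp9, Plau, Timp1 and Spp1. Without replicate 2 the count was 2, beside 6.39% of all detected genes. Mmp9, a gelatinase, had 157, 23.3 and 550.0 normalized counts, and Plau, the urokinase plasminogen activator, had 28792, 10676 and 44245. Timp1 had the highest mean with 62668, 27514 and 60429, and Mmp13, a collagenase, the smallest range with 7195, 7901 and 10894. Of 7 genes tested, 5 were called higher in replicate 1 than in replicate 2 and 0 lower, beside 10.8% and 9.51% of all genes. They were Plau, Mmp9, Timp1, Spp1 and the undetected Mmp1a, which had 13, 4 and 9 reads. Against replicate 3, 5 (Plau, Mmp1a, Mmp3, Mmp9 and Timp1) were called lower in replicate 2 and 0 higher, beside 7.22% and 9.22%. For replicates 1 and 3 it was 1 higher and 1 lower in replicate 1, beside 5.64% and 3.63%. The median log2 difference of replicate 2 minus replicate 1 was -1.43 for this list, and over all 14771 genes tested the median lay within 0.02 of 0. Ets1 differed by 1.13-fold and Ets2 by 1.33-fold between the same libraries, Ets2 in the opposite direction.

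Among the 19 other Ets factors, 9 were detected and 1 (Etv4) had a more than 2-fold range, beside 21.6% of all detected genes. That count was 0 without replicate 2 and 0 without replicate 3, beside 6.39% and 15.4%. Etv4 and Etv5, factors of the PEA3 group that depend on ERK in many tissues, had 284, 334 and 142, and 285, 163 and 207 normalized counts. Etv6, a repressor, was highest in replicate 2 with 505, 911 and 685, Elf1 had the highest mean before division by length with 928, 876 and 723, and Elf2 was the most even with 636, 651 and 667. Of 11 tested, 1 was higher and 0 lower in replicate 1 than in replicate 2, beside 10.8% and 9.51% of all genes. Against replicate 3 it was 0 and 1 of 11, beside 5.64% and 3.63%. Between replicates 2 and 3, 1 of 12 was higher and 2 were lower in replicate 2, beside 9.22% and 7.22%. Apart from Etv4, the genes called were undetected, namely Elf3 with 21, 1 and 10 reads and Spi1 with 0, 3 and 10.

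**Figure D4:**
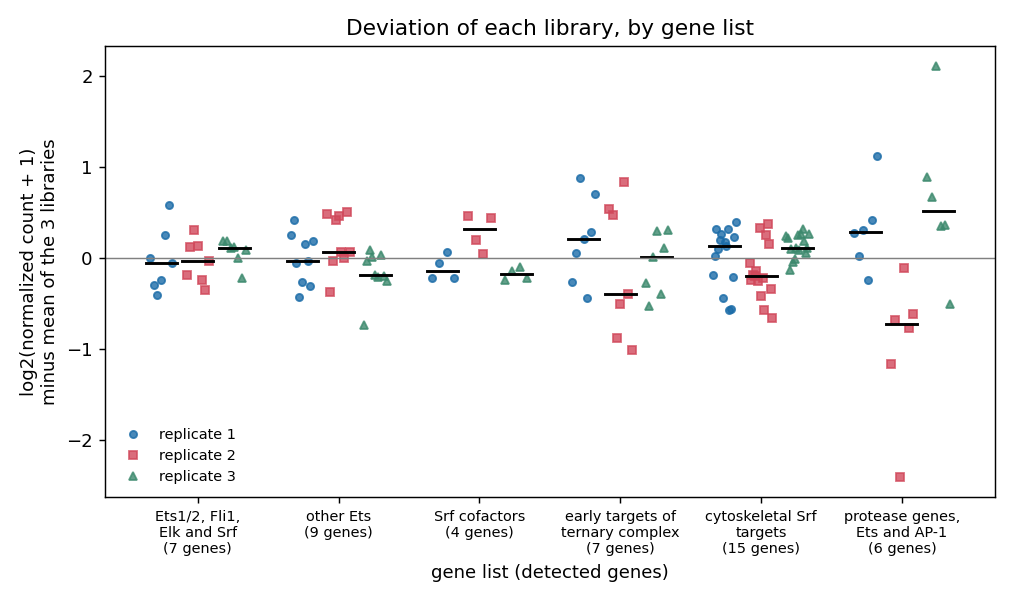
Difference of log2(normalized count + 1) from the mean of the 3 libraries for the detected genes of each list, by library (points are genes, black lines medians over genes). The list labelled protease genes, which also holds Timp1 and Spp1, has all 6 genes below 0 in replicate 2, while the Ets and Srf genes all stay within 1 of 0.

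The share of 50-base stretches of their annotated transcripts that also occur in another gene was 0% for Ets1, Ets2, Erg and Srf, and none was shared between the 8 genes. It was 0.292% for Fli1, 0.619% for Elk1, 1.45% for Elk4 and 5.90% for Elk3. Most of the stretches of Elk3 were shared with Cdk17, whose exons on the opposite strand overlap 316 bases of Elk3. The libraries were stranded, but whether strand was used in counting is not given in the sources used here, so the value of Elk3 is uncertain to that extent.

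Genes with the most similar order of levels were looked up for each detected gene by the root mean square difference of log2(normalized count + 1), centred on its mean, over 3 libraries and genes with a mean of at least 100. The nearest to Srf were Etv3, 4933427D14Rik and Mppe1, at 0.00356 to 0.00558. For Ets1 they were Tnip2, Sar1a and Dusp7, for Ets2 Zbtb45, Coro1b and Ago1, for Fli1 Plxnb2, Trmt5 and Stim1, for Elk1 Mars2, Iars and 1110037F02Rik, and for Elk3 Rsrp1, Mrps10 and Lhfpl2. The nearest to Elk4 were H2-Q4, Arfip1 and Il3ra, at 0.0226 to 0.0250. With 3 libraries many genes lie close, namely 1356 of 9991 within 0.1 of Srf, but 84 within 0.1 of Elk4.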

How the data were processed

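RNA-seq was analysed from 3 libraries (replicates 1, 2 and 3) of MG + PD0325901. The authors prepared stranded mRNA libraries, mapped single-end reads of 50 bp by TopHat (2.0.13) on mm10, kept unique reads and counted them per gene with HTSeq (0.5.3p3). The gene annotation, the strand setting and the libraries behind the size factors are not given in the sources used here. The signal they deposited is normalized counts, each library's reads divided by 1 DESeq size factor. Of the values, 100% were whole multiples of 1 read (tolerance 0.001 reads), which recovered the reads (size factors 1.15, 1.42 and 0.844). A further 3 columns of per-sample values could not be assigned to a sample and were not used.

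Detection required 10 normalized counts in every library, and log2 values used a pseudocount of 1. Pairs of libraries were compared across all genes that had 10 or more reads between them by two-sided exact binomial tests with Benjamini-Hochberg adjustment (threshold 0.05), which cover counting error only. For pairs with over 2000 reads the smaller tail was doubled. Exon lengths, positions and transcripts came from GENCODE M21 (GRCm38), the build of mm10, and promoters from RefSeq. The tests were tested on simulated data. The genes and lists were chosen with earlier results of these data known. Named genes were the 8 of the set and, in each list, the detected genes with the highest mean, the 2 largest and the smallest ranges, with others (such as Nr4a1, Etv5 and Myocd) named after their values were seen. Alternatives were other pseudocounts, minimums, fold limits, scalings (equal totals and TMM from edgeR 4.0.16) and lengths, and each replicate left out. Python 3.11.15, scipy 1.17.1, pandas 2.3.3 and R 4.3.3 were used.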

Additional observations from a re-analysis of the deposited data

How the results depend on the processing

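No paired analysis was possible because the 3 libraries share 1 condition. Both other scalings moved no mean level of the 8 genes by as much as 1 SD. They kept the geometric mean of the size factors, so means could hardly move. Equal totals shifted replicates 1, 2 and 3 by 0.00784, 0.0468 and -0.0547 log2, and TMM by 0.000161, -0.0055 and 0.00533. With either scaling 0 detected genes of the set had a more than 2-fold range. With the fold limit, 0, 0 and 1 of the set were called in the 3 pairs, as before. Divided by the longest transcript instead of all exons, levels per kb became 496 for Ets1, 204 for Ets2, 172 for Elk1, 168 for Elk4, 501 for Elk3 and 949 for Srf. Elk1 then stood above Elk4, and Elk3 and Ets1 overlapped, with Ets1 the higher in replicates 2 and 3, which follows from the lengths used.

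With a 1.5-fold limit, 2 of the 7 detected Ets and Srf genes had such a range (48.5% of all detected genes), and the counts were 5 for the other Ets genes, 2 for the Srf cofactors, 7 for the early targets and 6 for the cytoskeletal targets. Without a minimum level they were 1 (Erg), 7, 1 and 6 for the first 4 lists, and the same share over all genes was not computed. Leaving out each replicate gave 0 to 1 for the other Ets genes, 0 to 3 for the early targets, 0 to 1 for the cytoskeletal and 2 to 4 for the Ets and AP-1 targets, and a median SD of the Ets and Srf genes of 0.092 to 0.29. Without a fold limit, 6, 6 and 4 of the Ets and Srf genes differed in the 3 pairs, beside 69.0%, 51.9% and 62.6% of all genes. At 1.5-fold it was 2 between replicates 1 and 2, 1 between replicates 1 and 3 and 1 between replicates 2 and 3. The share of all genes called at 1.5-fold was not computed. Depth limits Erg, with 1 to 10 reads, and Fli1, with 34 to 70.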

Other observations

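The Ets factors of other lineages were near the limit of counting in these fibroblasts. Of the 19 other Ets genes, 10 were not detected, 2 of them (Etv2, which starts the endothelial lineage, and Fev, of serotonin neurons) with 0 reads in all 3 libraries. The epithelial factors Elf3, Ehf, Elf5 and Spdef had at most 21 reads in any library, the most being Elf3 with 18.2, 0.705 and 11.9 normalized counts in replicates 1, 2 and 3. The blood factor Spi1 (also called PU.1) had 0, 2.11 and 11.9 normalized counts, highest in replicate 3, where the summed leukocyte markers were also highest at 73.5. Whether these are linked was not tested. Etv1 of the PEA3 group had 3.47, 6.34 and 3.56 normalized counts, far below Etv4 and Etv5.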
